A study of Mus musculus with 2 samples.

Results

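The ribosomal protein genes are the 85 gene rows of the mouse count matrices whose symbol names a protein of the cytoplasmic ribosome, out of 27998 gene rows in all. They were chosen by symbol alone: Rpl or Rps followed by a number and its usual suffixes, with Rpsa, Rplp0, Rplp1 and Rplp2 added and symbols of processed copies (-ps, Gm names) left out. Rpl6l fits the pattern and was kept, but it is annotated as a processed pseudogene, 98.7% identical to Rpl6 over 871 bases. By the same prefixes, 53 members belong to the large subunit, where the 3 stalk genes were counted, and 32 to the small subunit. All 85 have a position in the GENCODE M21 annotation of GRCm38, on autosomes or the X chromosome, and 4 of them (Rpl10, Rpl36a, Rpl39 and Rps4x) lie on X. Fau, which encodes a ribosomal protein fused to a ubiquitin-like protein, does not carry such a symbol and was followed in a separate list.

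The study asked whether fetal oocytes respond to loss of the glucocorticoid receptor, the steroid hormone receptor encoded by Nr3c1. Female E15.5 embryos gave 2 droplet libraries, 1 from ovaries of 2 embryos homozygous for a deletion of the receptor (KO) and 1 from ovaries of 4 wild-type embryos (WT), so neither group has a replicate. The deletion removes exon 3 of Nr3c1 in every tissue, through a Cre expressed from a beta-actin promoter, and both groups carry the strain label Tg(Pou5f1-EGFP)2Mnn Nr3c1tm1.1Jda, in which the Pou5f1-EGFP transgene marks germ cells. Sorted GFP-positive germ cells were mixed with GFP-negative ovarian cells at 60 to 40, so the share of germ cells was set by the mixing. Within 15502 KO and 9045 WT cells that passed the limits of the study, the median cell held 10194.5 unique molecular identifiers (UMIs, 1 per captured transcript) in KO and 15685 in WT. The 27 barcodes that both libraries shared among these cells stayed in. In germ-like cells Nr3c1 stood at 72.0 UMIs per 1000000 UMIs (CPM) in WT and 11.6 CPM in KO, a log2 ratio of -2.63 (95% interval -2.71 to -2.55). Reads of this chemistry lie near the 3′ end of the transcript, outside exon 3, so this level is not itself a check of the deletion.

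Each ribosome joins a large subunit, which forms peptide bonds, with a small subunit, which reads the mRNA, and nearly every ribosomal protein is needed in equal number. Most of these genes yield very abundant mRNAs that begin with a C followed by a run of pyrimidines, the 5′ terminal oligopyrimidine (TOP) tract through which mTOR and LARP1 set their translation. Some have a second gene copy that arose by duplication or by retrotransposition, such as Rpl10l and Rpl39l, which are best known from meiotic and later male germ cells, where the X chromosome that carries Rpl10 and Rpl39 is silenced.

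Transcription start regions are shown for 11 members: those that moved most between germ stages and have an entry in the RefSeq promoter table (GRCm38.p6), and 3 paralogs with their usual forms. Each line gives the 15 bases before and the 15 bases from the annotated start, on the strand of the transcript, 5′ to 3′. Capitals mark a C followed by at least 5 bases that are each C or T, where that C lies within 10 bases of the start.
Rps2, chr17:24720048-24720077 (+): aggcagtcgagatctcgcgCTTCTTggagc
Rps3a1, chr3:86142654-86142683 (-): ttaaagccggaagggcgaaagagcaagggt
Rpl24, chr16:55966260-55966289 (+): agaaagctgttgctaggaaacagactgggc
Rpl10a, chr17:28328456-28328485 (+): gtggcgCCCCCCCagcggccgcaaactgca
Rpl22l1, chr3:28805493-28805522 (+): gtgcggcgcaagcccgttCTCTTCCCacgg
Rpl10, chrX:74270801-74270830 (+): gttgttacagtggaagataggccgcctata
Rpl10l, chr12:66284387-66284416 (-): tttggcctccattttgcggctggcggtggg
Rpl39, chrX:37085208-37085237 (-): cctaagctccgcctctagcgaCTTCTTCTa
Rpl39l, chr16:10170213-10170242 (+): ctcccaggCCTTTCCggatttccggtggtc
Rps27, chr3:90213634-90213663 (-): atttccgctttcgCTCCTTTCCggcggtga
Rps27l, chr9:66946071-66946100 (+): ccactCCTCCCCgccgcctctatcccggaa
Of the 11 starts, 7 hold such a tract and 4 do not.

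The promoter table held 64 of the 85 members, with 76 starts, each given as 250 bases before and 50 bases after the start. The tract was present at 35 of 76 member starts (46.1%) and at 19.2% of all 32851 starts in the table. The pattern in complement letters was searched on the same strand and within the same distance of the start. This pattern, a G followed by at least 5 bases that are each A or G, was present at 6.58% and 21.6%. Among other motifs searched on both strands of the whole 300-base window, CTTCCG, the core letters bound by ETS factors, stood in 60.5% of member promoters and 16.9% of all promoters. AAGATGGC, the core of the site bound by YY1, stood in 10.5% and 2.75%. GGGCGG, the GC box, stood in 60.5% and 35.7%, and TATAAA in 9.21% and 13.6%. Among the starts shown, the RefSeq position lay 1947 bases from the GENCODE gene start for Rps2, 180 bases for Rpl39, 72 for Rpl22l1 and 34 for Rps3a1, and 4 bases or fewer for the other 7. The starts used in these cells were not measured, so a tract or its absence describes only the letters of this window. Among members with an entry, the tract was found in 5 of the 8 that were higher in the later germ cells described below, in 2 of the 6 that were lower and in 27 of the 50 that passed the limit in neither direction.

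Ribosomal protein genes gave 29.1% of all UMIs in the cells kept. Cells were grouped by clustering on other genes, with every member and its near-identical copies left out, and groups were named from marker genes. The ribosomal share of each cell was regressed out of those genes first, so the grouping was not independent of the members. In WT, the share was 29.7% in 6778 germ-like cells, 28.9% in theca-like, 28.5% in epithelia-like, 26.7% in endothelia-like and 25.9% in granulosa-like cells, the supporting cells around the oocytes. It was lower in immune-like cells (20.9%, 31 cells) and erythroid-like cells (20.9%, 15 cells), where haemoglobin transcripts gave 32.6% of UMIs. In KO, the first 6 of these classes stood at 29.2%, 29.4%, 29.1%, 28.1%, 27.6% and 23.6%, and erythroid-like cells were lowest, with a log2 ratio to granulosa-like cells of -0.62 (-0.63 to -0.61). Counting error is small at this depth: bounds of the exact 95% binomial intervals lay at most 0.0326 percentage points from the share in groups of 391 or more cells, and at most 0.143 points in the 3 smallest classes. These intervals, like all others here, cover counting error only and not the difference between embryos, which a single library per group cannot show.

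**Figure D1:**
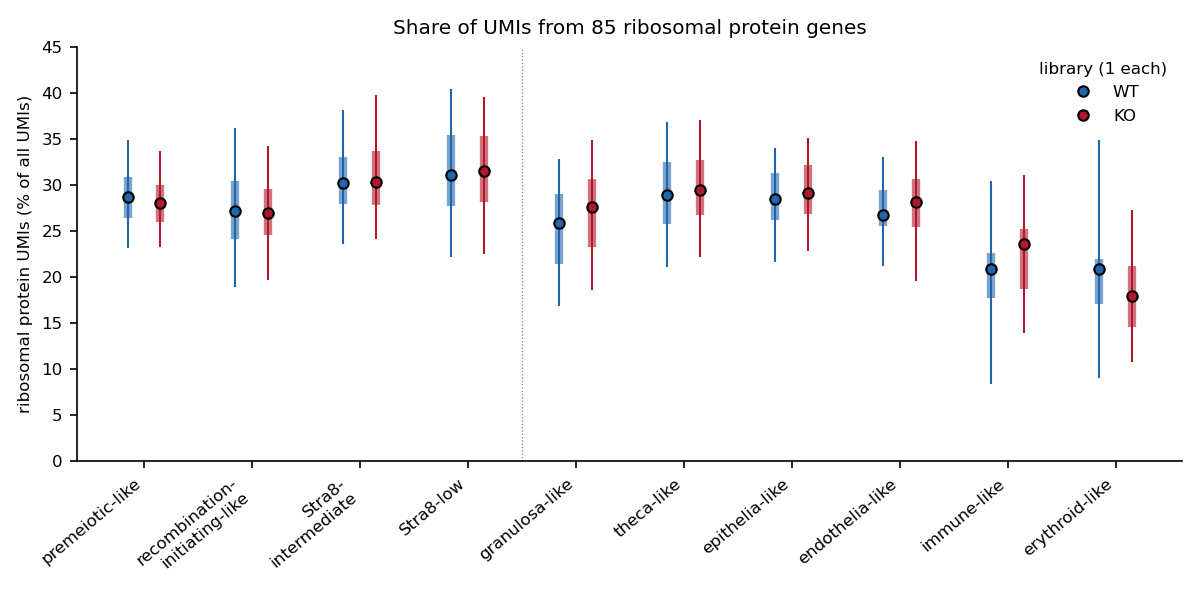
Share of UMIs from the 85 ribosomal protein genes (vertical axis, % of all UMIs) in 4 germ groups and 6 somatic or blood classes (horizontal axis, split by the dotted line), for the WT library (blue) and the KO library (red). Points give the share over all cells of a group, thick bars the middle 50% of cells and thin lines the 5th to 95th percentile; the points of WT and KO lie inside each other's thick bars in every germ group, and the immune-like and erythroid-like classes sit lowest.

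Between KO and WT, the share differed little beside the spread of single cells. In germ-like cells, the KO over WT log2 ratio was -0.025 (-0.025 to -0.024), and the middle 50% of WT cells ranged from 26.4% to 33.3%. The largest difference among the 4 large classes was in granulosa-like cells, with 25.9% in WT and 27.6% in KO, a log2 ratio of 0.095 (0.093 to 0.097). This ratio was 0.19 among cells of 8000 to 15000 UMIs and 0.021 where the ribosomal share was not regressed out before clustering. Without that regression, 211 of the 1153 WT cells called granulosa-like were germ-like cells of the main clustering, beside 17 of 2056 in KO. The 0.021 thus compares classes of unlike make-up, and the part of these germ-like cells in it was not tested. In theca-like cells the log2 ratio was 0.025, and it was -0.018 among cells of 8000 to 15000 UMIs. In epithelia-like cells it was 0.032. Mitochondrial transcripts, the other large block of UMIs, made up 6.90% in WT and 5.70% in KO granulosa-like cells, and their part in the difference was not tested.

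Germ cells fell into 6 clusters along the course of meiotic entry. The cluster with the most Stra8, the gene induced at meiotic entry, also held pluripotency genes and Rhox genes and was called premeiotic-like. Its Stra8 level was 1569 CPM in WT and 1514 CPM in KO. A pair of clusters were called recombination-initiating-like because 7 and 3 genes of that marker list were at least 1.25-fold higher there than in other germ-like cells. Spo11, which makes the breaks that start recombination, was not among the genes that peaked there: it stood at 66.3 and 87.3 CPM in this pair, beside 116 and 119 CPM in the Stra8-low clusters described next and 104 CPM in the Stra8-intermediate cluster. The other 3 clusters met no fixed set of stage markers and are described by their Stra8 level: 1 Stra8-intermediate cluster, at 138 CPM in WT and 199 CPM in KO, and 2 Stra8-low clusters, at 21.8 and 14.2 CPM over both libraries. Syce3, a gene of the synaptonemal complex, was highest in the Stra8-low clusters, at 1650 and 1566 CPM over both, beside 324 CPM in the premeiotic-like cluster. The comparison of Stra8-low with premeiotic-like cells was added after these clusters had been seen.

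In WT, the ribosomal protein share was 28.8% in premeiotic-like, 27.2% in recombination-initiating-like, 30.2% in Stra8-intermediate and 31.1% in Stra8-low cells. In KO, it was 28.1%, 27.0%, 30.4% and 31.5%. Both libraries thus had their lowest share in the recombination-initiating-like and their highest in the Stra8-low cells. As log2 ratios, the step from premeiotic-like to recombination-initiating-like cells was -0.082 in WT and -0.057 in KO, and that from premeiotic-like to Stra8-low cells was 0.11 in WT and 0.17 in KO. The 2 Stra8-low clusters were not alike, with 32.8% and 30.0% in WT and 32.4% and 29.9% in KO. Depth differed between the stages, with median UMIs per WT cell of 24930 in premeiotic-like, 14014.5 in recombination-initiating-like, 23495 in Stra8-intermediate and 14281 in Stra8-low cells. Among cells of 8000 to 15000 UMIs the WT steps were -0.096 and 0.14.

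The balance between the subunits shifted along the same course. Large-subunit UMIs were 1.30 times the small-subunit UMIs in premeiotic-like cells of WT, 1.24 times in recombination-initiating-like, 1.23 times in Stra8-intermediate and 1.18 times in Stra8-low cells. In KO the same ratios were 1.29, 1.25, 1.23 and 1.18. Without Rps20, the ratios in the same order were 1.36, 1.33, 1.34 and 1.31 in WT and 1.35, 1.35, 1.34 and 1.31 in KO. This was a smaller shift than with this gene, and in WT it did not fall at every step.

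Levels of the members spanned a wide range. UMIs near the 3′ end count each transcript once, so CPM values are not scaled to gene length. In WT germ-like cells the median member stood at 3188 CPM, the highest, Rps20, at 11005 CPM and the lowest, Rpl6l, at 3.47 CPM. Only 7 members were under 1000 CPM, namely the paralogs Rpl3l, Rpl7l1, Rpl10l, Rpl22l1, Rpl36al and Rpl39l and the pseudogene Rpl6l. The 10 members with the most UMIs, led by Rps20, Rplp1, Rps23 and Rps15a, gave 25.4% of all ribosomal protein UMIs.

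The make-up of these UMIs was compared over 10 classes and germ stages as each member's share of all ribosomal protein UMIs. Of the 83 members with at least 1000 UMIs in WT, the median log2 range from the lowest to the highest class was 0.62 in WT and 0.53 in KO, and it was over 1 for 20 members in WT and 12 in KO. These values include the small endothelia-like, immune-like and erythroid-like classes. Without those classes the median log2 range was 0.54 in WT and 0.51 in KO. The steadiest were Rps18, Rpl27a, Rpl30, Rpl23 and Rps19, with log2 ranges from 0.15 to 0.28 in WT. Rps18, a protein of the small subunit head, made up 1.51% of ribosomal protein UMIs in the lowest and 1.68% in the highest WT class. The widest were Rpl10l, Rpl39l, Rps27l, Rplp0 and Rps2. Rps27l ranged from 0.127% in endothelia-like to 0.531% in recombination-initiating-like cells of WT, and Rps2 from 0.407% in Stra8-low to 1.36% in premeiotic-like cells. No UMI of Rpl10l or Rpl39l was found among the 99041 ribosomal protein UMIs of the 30 WT endothelia-like cells, which allows a share of up to 0.00303% (3 counts); the highest shares were at least 2.25-fold and 13.1-fold higher.

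**Figure D2:**
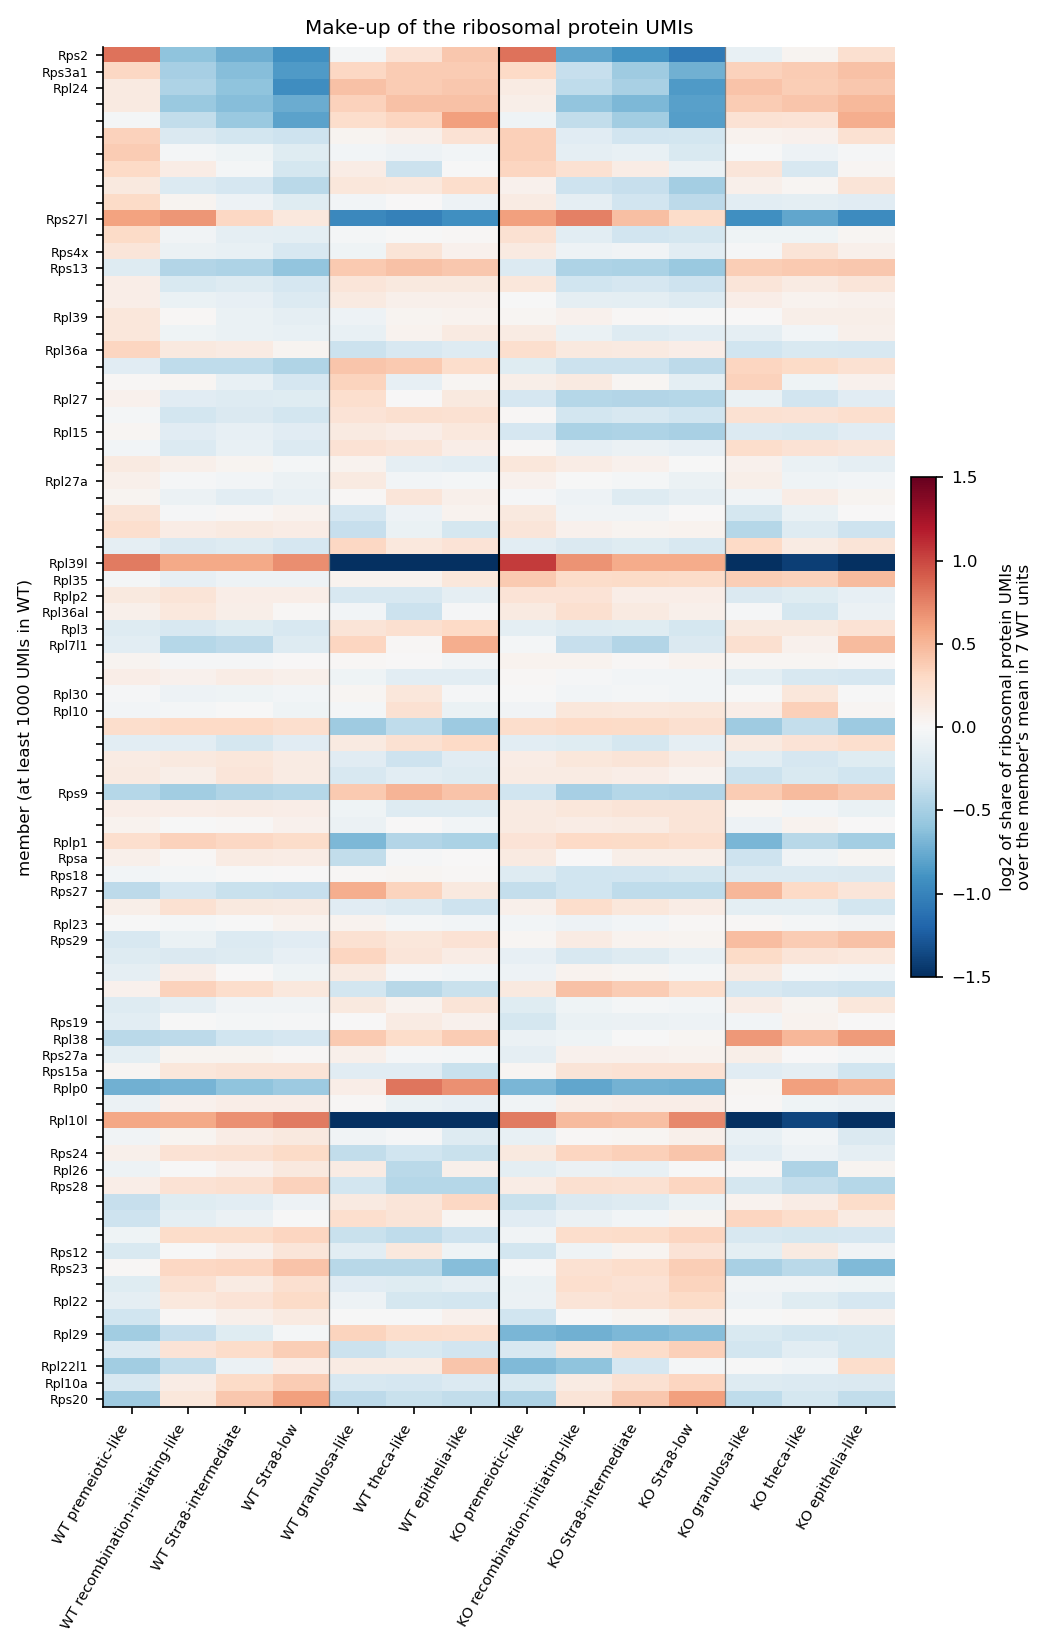
Make-up of the ribosomal protein UMIs for the 83 members with at least 1000 UMIs in WT (rows), in 4 germ groups and 3 somatic classes of the WT library (left of the black line) and the KO library (right). Colour gives the log2 of the member's share of ribosomal protein UMIs over its mean in the 7 WT groups, and rows run from members lower to members higher in WT Stra8-low than premeiotic-like cells; Rps2, Rps3a1 and Rpl24 lie near the top, Rpl10a and Rps20 close the bottom, only members the text describes are labelled, and Rpl39l, Rpl10l and Rps27l stand out as low in the somatic classes.

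Between germ stages, Rps2 and Rps20 moved most. Rps2, a protein at the mRNA entry site of the small subunit, stood in WT at 3904 CPM in premeiotic-like, 1381 CPM in recombination-initiating-like, 1407 CPM in Stra8-intermediate and 1267 CPM in Stra8-low cells. In KO it stood at 3798, 1213, 1260 and 1168 CPM. The fall came between the first pair of stages in both libraries, and the 3 later groups were close to each other. The log2 ratio of recombination-initiating-like over premeiotic-like cells was -1.50 (-1.52 to -1.48) in WT and -1.65 (-1.66 to -1.63) in KO.

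Rps3a1, a protein near the mRNA exit of the small subunit, fell from 3628 to 1948 CPM in WT and from 3492 to 2144 CPM in KO between the same stages. Rpl24, which forms a bridge to the small subunit, fell from 2691 to 1677 CPM in WT and from 2602 to 1763 CPM in KO, and went on to 1394 and 1485 CPM in Stra8-low cells. In premeiotic-like cells both were close to their somatic levels, since WT granulosa-like cells had 3261 CPM of Rps3a1 and 2996 CPM of Rpl24.

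Rps20, a small subunit protein at the head, rose instead. It stood at 5635, 8683, 11408 and 13567 CPM across the 4 WT germ groups and at 5794, 8749, 11432 and 13756 CPM in KO. The steps were thus alike in both libraries, and the log2 ratio of Stra8-low over premeiotic-like cells was 1.27 (1.25 to 1.28) in WT and 1.25 (1.24 to 1.26) in KO. The 3 large somatic classes of WT stood between 5604 and 6547 CPM. Rpl10a, the protein of the L1 stalk, rose from 3802 to 6348 CPM in WT and from 3766 to 6156 CPM in KO between premeiotic-like and Stra8-low cells. Rpl22l1 rose from 711 to 1184 CPM in WT and from 632 to 1094 CPM in KO.

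Members were counted where the difference of ln(CP10k + 1), the natural log of UMIs per 10000 plus 1, was at least 0.25, the size limit the study used. From premeiotic-like to recombination-initiating-like cells, 11 of 85 members passed it in WT (12.9%), 1 higher (Rps20) and 10 lower, where 7.54% of all genes tested passed, 3.32% higher and 4.22% lower. In KO, 10 passed (11.8%), 1 higher and 9 lower, where 6.81% of all genes passed, 2.99% higher and 3.81% lower. All 10 had also passed in WT, and 80 of 85 members had the same sign in both libraries. From premeiotic-like to Stra8-low cells, 21 members passed in WT (24.7%), 12 higher and 9 lower, where 10.6% of all genes passed, 4.44% higher and 6.15% lower. In KO, 23 passed (27.1%), 15 higher and 8 lower, where 9.98% of all genes passed, 3.99% higher and 5.99% lower. In this comparison, 19 members passed in both libraries in the same direction and 75 of 85 had the same sign. The limit is harder to reach for genes of low level than for these abundant ones, so the shares over all genes are not matched on level. The median log2 ratio of Stra8-low over premeiotic-like cells was 0.093 for members and 0.15 for all genes in WT, and 0.13 and 0.070 in KO.

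Other genes of translation were counted in the same way. Of 18 translation factors and further TOP genes, 4 passed the limit higher and 4 lower in Stra8-low over premeiotic-like cells in both WT and KO. Of 22 ribosome assembly genes, such as Npm1, Ncl and Fbl, none passed higher and 2 passed lower in each library, and their summed level fell from 6403 to 5564 CPM in WT and from 6598 to 6248 CPM in KO. The 76 mitochondrial ribosomal protein genes tested, whose products build the ribosome of the mitochondrion, had 7 higher and 16 lower in WT and 9 higher and 16 lower in KO. Among 7 regulators tested, a list with Mycn, Mtor and Larp1, 0 passed in either library.

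**Figure D3:**
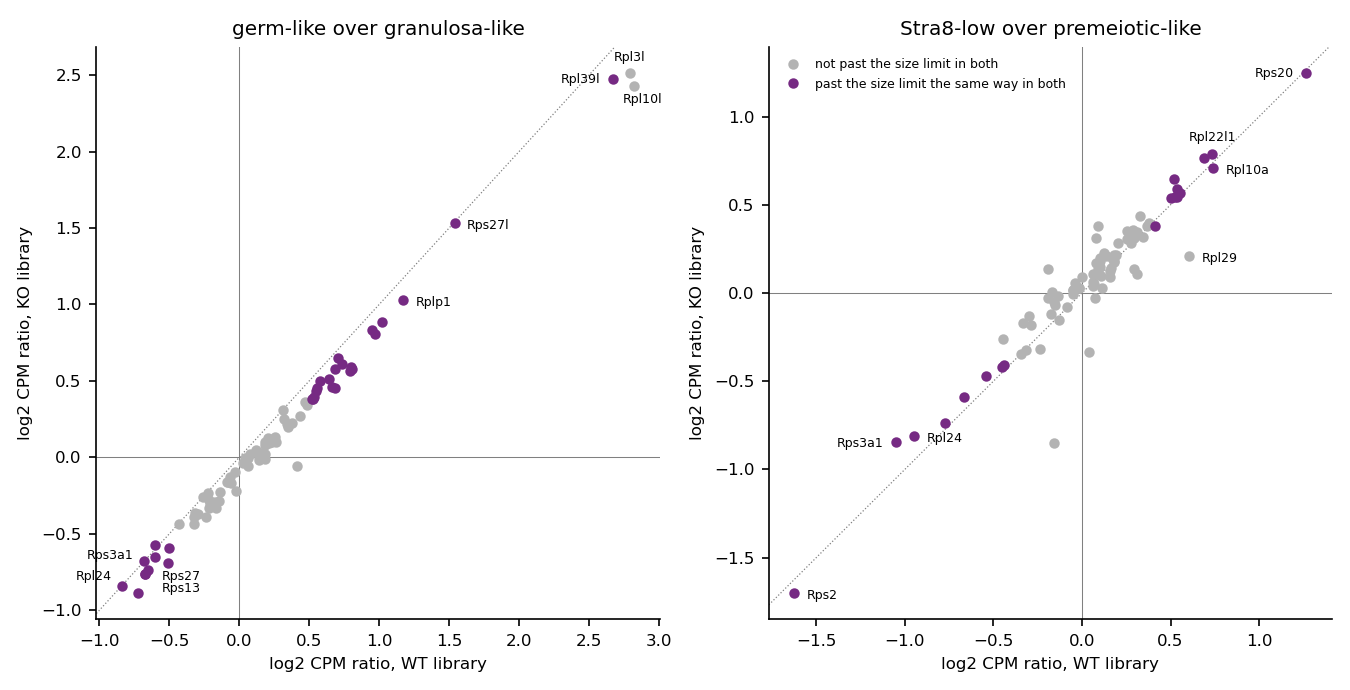
Log2 CPM ratio of each member in the WT library (horizontal axis) against the same ratio in the KO library (vertical axis), for germ-like over granulosa-like cells (left) and Stra8-low over premeiotic-like germ cells (right). Purple points mark members past the limit with the same sign in WT and KO (31 and 19 members), the dotted line marks equal ratios and those of the 5 members at each WT end that the text describes are named; Rps20 and Rps2 lie at opposite ends of the right panel, and Rpl29 is the named member farthest from the line there.

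Germ-like and granulosa-like cells differed in the total and in single members. The share of UMIs differed by a log2 ratio of 0.20 in WT and 0.079 in KO. Single members ran from -0.84 to 2.82 in WT and up to 2.51 in KO. Members of a sum always lie on both sides of its ratio, so this range is not weighed against the total. The highest were Rpl10l in WT and Rpl3l in KO, whose granulosa-like levels lay within the germ cell background described below. Rps27l stood at 1.54 in WT. In WT, 35 of 85 members passed the limit (41.2%), 25 higher in germ-like cells and 10 lower, where 21.7% of all genes passed, 10.7% higher and 10.9% lower. In KO, 35 members passed as well, 21 higher and 14 lower, where 20.3% of all genes passed, 10.2% higher and 10.1% lower. The count of lower members in WT, 11.8%, was thus near that of all genes. Both libraries shared 31 members past the limit in the same direction, and 78 of 85 members had the same sign.

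The stalk of the large subunit, which recruits the translation factors, was split. Rplp1, a tail protein of the stalk, had 9703 CPM in the germ-like and 4301 CPM in the granulosa-like cells of WT, beside 9349 and 4572 CPM in KO, with log2 ratios of 1.17 (1.16 to 1.19) and 1.03 (1.02 to 1.04). Rplp2, its partner, was also higher in germ-like cells, with log2 ratios of 0.56 in WT and 0.45 in KO. Rplp0, the base on which both sit, was lower in germ-like cells, with log2 ratios of -0.51 (-0.53 to -0.49) in WT and -0.69 (-0.71 to -0.67) in KO. Within the somatic classes of WT, Rplp0 stood at 2034 CPM in granulosa-like, 3709 CPM in theca-like and 3373 CPM in epithelia-like cells.

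Among small-subunit genes, Rps23, Rps24 and Rps28 were higher in germ-like cells beside Rps20, with log2 ratios from 0.74 to 0.95 in WT and from 0.59 to 0.83 in KO. Rpsa, which is also known as a laminin receptor, was higher by 0.66 in WT and 0.46 in KO. Rps3a1, Rps27, Rps13 and Rps9 were lower, as was Rpl24, with log2 ratios from -0.84 to -0.65 in WT and from -0.84 to -0.68 in KO. Rps27a, whose protein is made as a fusion with ubiquitin, differed by 0.14 in WT and 0.028 in KO and did not pass the limit. Of the 4 X-linked members, Rpl36a passed the limit in both libraries (0.64 in WT, 0.52 in KO). Rpl10, Rpl39 and Rps4x did not, with log2 ratios of 0.21, 0.22 and 0.14 in WT and 0.13, 0.097 and 0.019 in KO.

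Summed over its genes, the list of translation factors and further TOP genes was lower in germ-like cells, at 19292 CPM beside 28311 CPM in granulosa-like cells of WT and at 18949 beside 28402 CPM in KO. Of its 18 genes, 4 passed the limit higher and 7 lower in WT, and 3 higher and 7 lower in KO. The ribosome assembly list was higher, at 6485 beside 3487 CPM in WT and 7118 beside 3834 CPM in KO, with 9 of 22 genes higher and 2 lower in WT and 8 and 2 in KO. Mitochondrial ribosomal proteins had 20 of 76 genes higher and 7 lower in WT and 23 and 7 in KO. Of the 8 regulators, 2 passed higher and 1 lower in each library.

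Somatic clusters held germ cell RNA. The 8 germ cell markers, such as Ddx4, Dazl and Sycp3, were found in WT granulosa-like cells at 12.9% to 15.3% of their level in germ-like cells and in KO granulosa-like cells at 16.4% to 17.6%. In theca-like cells these values were 14.2% to 17.5% in WT and 21.6% to 24.9% in KO, and in epithelia-like cells 9.01% to 10.6% and 10.6% to 13.2%. The smallest classes differed more between the libraries. Their median marker level was 2.08% in WT and 22.9% in KO endothelia-like cells and 1.76% and 16.1% in immune-like cells. In erythroid-like cells it was 36.3% and 55.0%. How much of this RNA was free in the droplets and how much came from doublets was not tested, and levels of a somatic class at these percentages are read as background.

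The paralogs were read beside this background. Rpl39l stood at 107 CPM in WT and 108 CPM in KO germ-like cells, and at 16.8 CPM and 19.4 CPM in granulosa-like cells. Its granulosa-like level was thus 15.7% (13.7% to 17.9%) of the germ-like level in WT and 16.2% to 19.9% of it in KO, intervals that overlap the range of the germ cell markers. Rpl10l stood at 18.9 CPM in WT and 17.6 CPM in KO germ-like cells, and its granulosa-like level was 14.2% (9.83% to 19.7%) and 18.6% (14.3% to 23.8%) of that. In theca-like cells Rpl39l was at 13.2% to 18.1% in WT and 23.9% in KO, again beside the markers. Since these intervals overlap the range of the germ cell markers, the levels of both paralogs in granulosa-like and theca-like cells cannot be told apart from germ cell RNA and are not read as expression.

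Only cells that carried UMIs of fewer than 2 markers of another class were then kept, which left 323 granulosa-like and 2271 germ-like cells of WT and 746 and 3754 of KO. This filter itself lowers the germ cell markers in granulosa-like cells, so their level in the cells left is no measure of background. Rpl39l stood at 2.83% of its germ-like level in WT and 1.78% in KO granulosa-like cells, on 11 UMIs in each library. In theca-like cells it stood at 0.948% in WT, on 3 UMIs, and at 4.63% in KO, on 22 UMIs. Rpl10l had 2 to 4 UMIs in each of these 4 groups. Rps27l stood at 24.7% in WT and 21.9% in KO granulosa-like cells and at 28.4% and 23.4% in theca-like cells. Whether the few UMIs of Rpl39l and Rpl10l that remained came from somatic cells was not tested.

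Rps27l, a paralog of the zinc finger protein Rps27 that is known as a p53 target, had 1287 CPM in the germ-like and 443 CPM in the granulosa-like cells of WT, beside 1411 and 488 CPM in KO. The log2 ratio was 1.54 (1.50 to 1.58) in WT and 1.53 (1.50 to 1.56) in KO. Rps27 itself went the other way, from 2433 CPM in the germ-like to 3883 CPM in the granulosa-like cells of WT and from 2357 to 4000 CPM in KO. Within germ cells Rps27l was higher at the early stages, from 1466 CPM in premeiotic-like to 1166 CPM in Stra8-low cells of WT and from 1438 to 1279 CPM in KO. Rpl39l ranged from 93.4 to 118 CPM over the WT germ groups, lowest in recombination-initiating-like and highest in Stra8-low cells, and in KO from 136 CPM in premeiotic-like to 101 CPM in recombination-initiating-like cells, with 107 CPM in Stra8-low cells. Rpl10l ranged from 15.9 to 21.2 CPM in WT and from 14.8 to 20.5 CPM in KO.

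Rpl22 and Rpl22l1, a pair in which the usual form is known to repress the other, both rose from premeiotic-like to Stra8-low cells. Rpl22 went from 2061 to 2989 CPM in WT and from 2067 to 3019 CPM in KO. In WT, Rpl22l1 had 985 CPM in the germ-like class beside 999 CPM in the granulosa-like class, and in KO 836 beside 975 CPM. Rpl36al had 843 CPM in the germ-like and 675 CPM in the granulosa-like cells of WT, beside 872 and 734 CPM in KO. Rpl7l1 was lower in germ-like cells, at 84.8 beside 114 CPM in WT and 85.7 beside 116 CPM in KO. Rpl3l, a form of Rpl3 known from muscle, had 3.70 CPM in WT and 4.09 CPM in KO germ-like cells and 0.536 and 0.716 CPM in granulosa-like cells, again within the range of the germ cell markers at 14.5% (5.78% to 30.1%) and 17.5% (9.51% to 29.7%). Rpl6l, whose reads cannot be told apart with certainty from those of Rpl6, had 3.47 and 2.60 CPM in the same classes of WT and 3.64 and 3.78 CPM in KO.

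**Figure D4:**
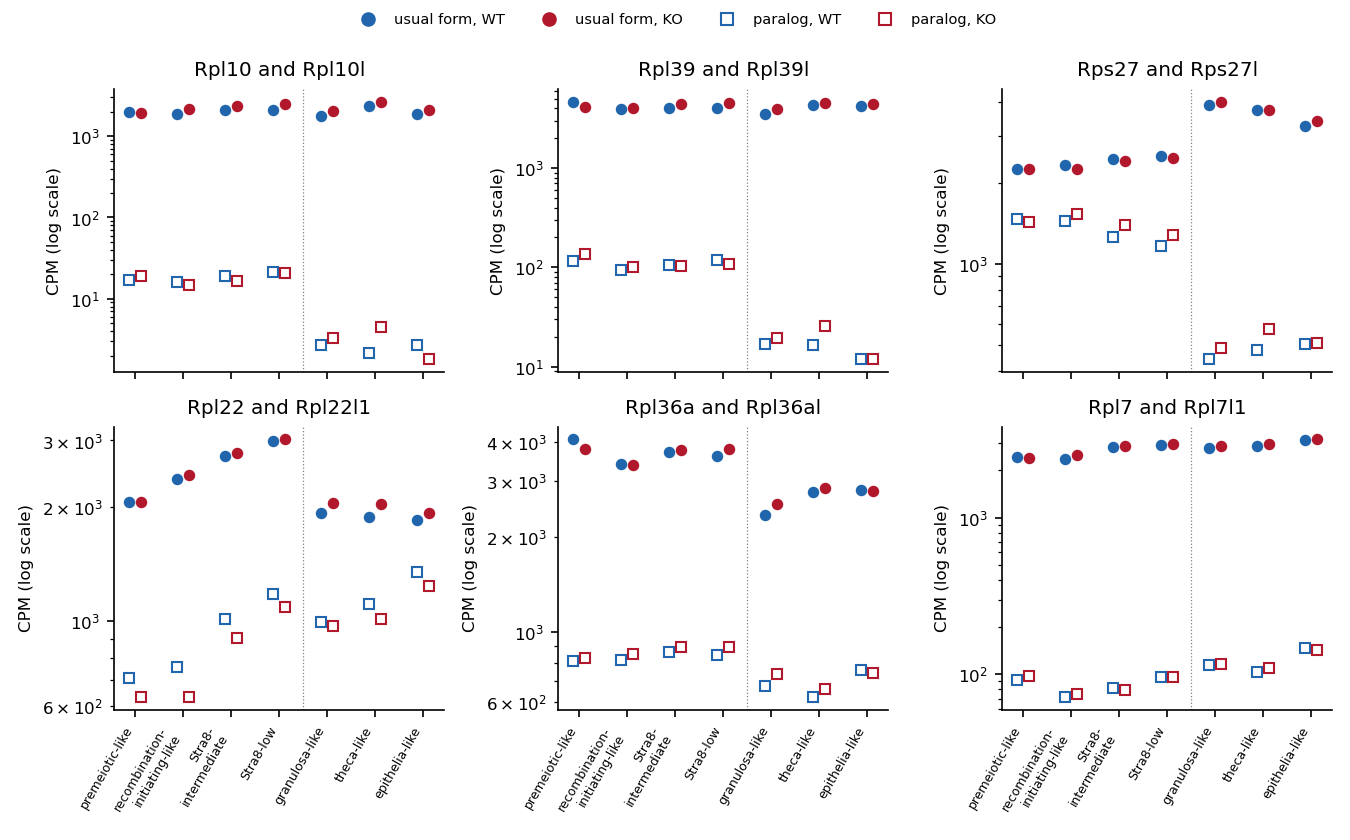
Levels of 6 pairs of usual form (filled circles) and paralog (open squares) in CPM on log axes, over 4 germ groups (left of the dotted line) and 3 somatic classes, for the WT library (blue) and the KO library (red). Rpl10l and Rpl39l drop in the somatic classes while Rpl10 and Rpl39 do not, Rps27l and Rps27 move in opposite directions, and Rpl22 and Rpl22l1 rise together across the germ groups.

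Theca-like and granulosa-like cells were closer to each other. Of 82 members tested in WT, 8 passed the limit between theca-like and granulosa-like cells (9.76%), where 8.79% of all genes passed, and of 84 in KO, 3 passed (3.57%), where 7.42% of all genes passed. Rplp0 led in both, with log2 ratios of theca-like over granulosa-like cells of 0.87 (0.84 to 0.89) in WT and 0.67 (0.65 to 0.69) in KO. Rps12, at 0.48 in WT and 0.37 in KO, was the other member past the limit in both libraries. Rpl26 was lowest, at -0.37 in WT and -0.39 in KO. Immune-like and erythroid-like cells, both few in number, differed more from granulosa-like cells. In immune-like cells, 42 of 82 members passed in WT (51.2%), 4 higher and 38 lower, where 21.6% of all genes passed, and 22 of 82 in KO (26.8%), 2 higher and 20 lower, where 14.2% passed. In erythroid-like cells, 45 of 82 members passed in WT (54.9%), 6 higher and 39 lower, where 23.6% of all genes passed, and 59 of 82 in KO (72.0%), 1 higher and 58 lower, where 21.4% passed. All genes were shifted lower as well. The median log2 ratio of immune-like over granulosa-like cells was -0.36 for members and -0.53 for all genes in WT, and -0.26 and -0.19 in KO. For erythroid-like cells it was -0.36 and -0.67 in WT, and -0.68 and -0.76 in KO. Haemoglobin took 32.6% and 36.0% of the UMIs of these erythroid-like cells. Germ cell markers stood there at a median of 36.3% of their germ-like level in WT and 55.0% in KO. In immune-like cells they stood at 1.76% and 16.1%. The part of haemoglobin and of germ cell RNA in the counts was not tested.

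Between KO and WT, member levels in germ-like cells were close. Of 85 members, 1 passed the limit (1.18%), where 0.174% of all genes tested passed, and the log2 ratios of KO over WT had a median of -0.022, beside -0.052 for all genes. Rpl29, a protein at the surface of the large subunit, was the member past it. It stood at 1407 CPM in WT and 982 CPM in KO, a log2 ratio of -0.52 (-0.53 to -0.51). In granulosa-like cells it stood at 1749 and 1266 CPM, in theca-like cells at 1869 and 1310 CPM and in epithelia-like cells at 1833 and 1303 CPM. Rpl29 was thus lower in KO in 4 of 4 large classes, with log2 ratios of -0.47, -0.51 and -0.49 in the somatic ones. Within germ cells, its log2 ratio was -0.20 (-0.24 to -0.17) in premeiotic-like, -0.38 (-0.40 to -0.36) in recombination-initiating-like, -0.49 (-0.51 to -0.46) in Stra8-intermediate and -0.60 (-0.61 to -0.58) in Stra8-low cells, so it rose across germ stages less in KO than in WT.

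In granulosa-like cells, 2 of 83 members passed between KO and WT (2.41%), where 0.197% of all genes passed; besides Rpl29 this was Rpl35, a protein near the exit of the peptide tunnel, at 1180 CPM in WT and 1570 CPM in KO. None of the 4 lists of other translation genes had a gene past the limit in any of the 4 large classes. In theca-like cells, 1 of 82 passed (1.22%), where 0.337% of all genes passed, and in epithelia-like cells 1 of 82, where 0.24% passed. Rpl35 had the highest log2 ratio in germ-like cells, 0.35 (0.34 to 0.36), with 1229 CPM in WT and 1563 CPM in KO, and stood at 0.41, 0.32 and 0.33 in the 3 somatic classes. Rpl38 and Rps29 followed it at 0.26 and 0.23 in germ-like cells. At the low end, Rpl15, Rps18, Rpl27 and Rpl22l1 had log2 ratios of -0.34, -0.29, -0.27 and -0.24. None of these passed the limit in germ-like cells. All classes come from the same 2 libraries, so the repeats across classes are not independent of how each library was made.

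Near-identical copies carried part of these reads. They include Wdr89, a gene whose transcript holds a stretch matching Rplp2, so not all of them are processed copies. Of the 85 members, 26 had at least 1 gene row, 39 in all, with transcripts that aligned to theirs over 200 or more bases, with 95% or more of the letters equal. The copies gave 0.598% of the joint UMIs of members and copies in WT and 0.659% in KO germ-like cells, but the part was larger for single members. Gm10709, a copy of Rpl29 with 99.2% identity over 480 bases, had 79.9 CPM in WT and 175 CPM in KO germ-like cells, so copies made up 5.43% of the joint Rpl29 UMIs in WT and 15.2% in KO. With copies added, the KO over WT log2 ratio of Rpl29 was -0.36 (-0.37 to -0.35) and no member passed the limit in germ-like cells. For Rpl35, whose copy Gm2000 was lower in KO, the ratio went from 0.35 to 0.32. How reads were divided between a member and its copies was set in the deposited counts and cannot be told apart here from a change in either. Whether the embryos of the 2 libraries differed in sequence at these genes was not tested, and this limits what the Rpl29 difference means.

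**Figure D5:**
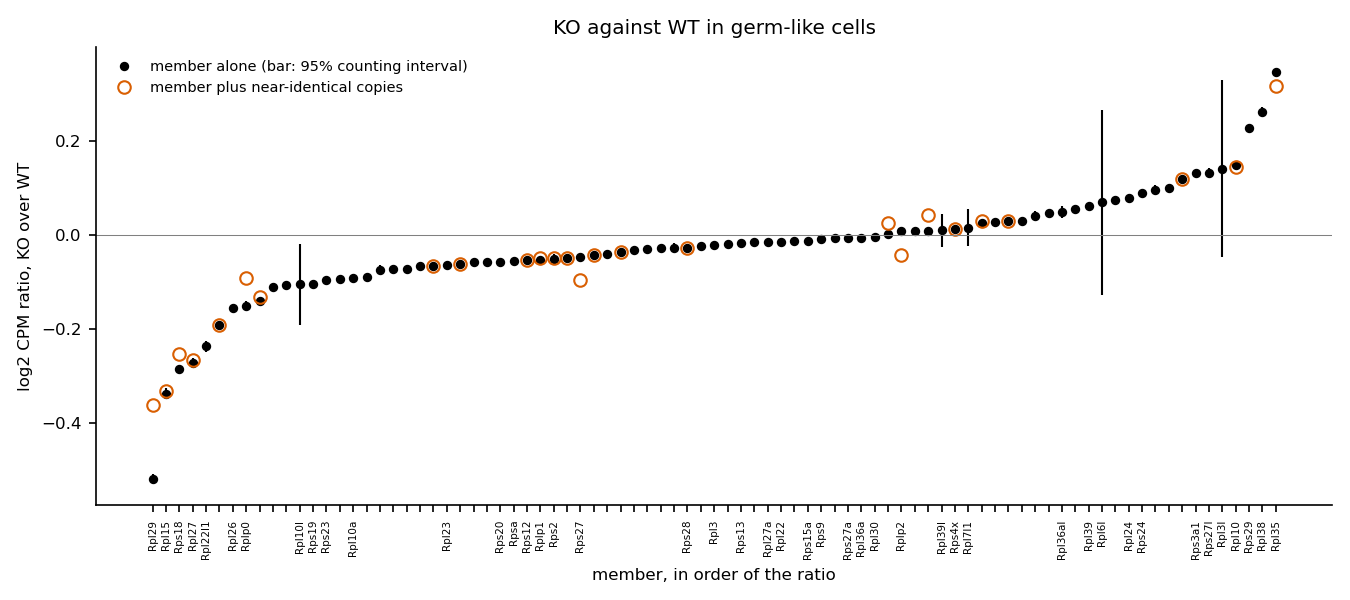
Log2 CPM ratio of KO over WT in germ-like cells (vertical axis) for the 85 members in order of the ratio (horizontal axis). Black points give the member alone with its 95% counting interval, with labels for members the text describes, and orange rings the member with its near-identical copies added, for the 26 members that have any; most points lie close to 0, Rpl29 is lowest and moves up when copies are added, and Rpl35 is highest.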

How the data were processed

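Droplet libraries of KO and WT ovaries, 1 per group, were analysed. The authors deposited raw UMI counts per gene and cell, made with Cell Ranger 3.0.2 per the file headers on mm10; Seurat 3.2.3 is named in the submitters' notes. Cells were kept by the study's limits: in WT 1500 to 6500 genes and 5500 to 40000 UMIs, in KO 1200 to 5500 genes and 3000 to 30000 UMIs, and under 10% mitochondrial UMIs. Counts were scaled to 10000 per cell and ln(x + 1) transformed; genes, UMIs, mitochondrial and ribosomal share were regressed out. From 2000 variable genes without members and copies, 30 components and 20 neighbours gave Leiden clusters (resolution 0.5; scanpy 1.11.5). A cluster took a name from 3 or more fixed markers, 2-fold over other classes, or 1.25-fold over other germ-like cells for stages; these limits were set after the clusters were seen. Scrublet called 1023 KO (6.60%) and 235 WT (2.60%) cells doublets; they stayed in. UMIs were summed per class and library, since cells are not replicates. KO against WT has no residual degrees of freedom; classes and stages were compared within each library, and no test over the pair of libraries was run; ratios carry exact 95% intervals. Genes needed 100 UMIs over both sides. The calling step was checked on simulated counts. Copies were found with BLAST+ 2.17.0 among GENCODE M21 transcripts. Rack1 was matched by gene ID. Total UMIs were 186117981 in KO and 168483330 in WT over 17829 and 11430 barcodes. Named members were, among those reported, the 5 highest and 5 lowest of each comparison, the 5 widest and 5 narrowest in make-up, and fixed paralogs, stalk and fusion genes; values of other members are given only as counts, ranges or examples chosen after they were seen. The members and lists were chosen with earlier results of these data known. Values of a few genes are not reported here.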

Additional observations from a re-analysis of the deposited data

Results flagged for a closer look

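Gene rows outside the chosen members were flagged where a near-identical copy differed between the libraries by at least the size limit in germ-like cells. As KO over WT log2 ratios, these were Gm8730 (copy of Rplp0) at 1.70, Gm10709 (Rpl29) at 1.13, Gm10076 (Rpl41) at 0.77, Gm10260 (Rps18) at 0.77, Rps26-ps1 (Rps26) at 0.59, Wdr89 (a gene whose transcript holds a stretch matching Rplp2) at -0.56 and Rps27rt (Rps27) at -0.69. Gm8730 stood at 23.8 CPM in WT and 77.3 CPM in KO germ-like cells, at 30.5 and 114 CPM in granulosa-like, at 52.5 and 196 CPM in theca-like and at 50.2 and 190 CPM in epithelia-like cells. The other 6 copies had the same sign in germ-like and all 3 somatic classes. The cause was not tested.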

How the results depend on the processing

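Of 84 values of the 8 main results under alternatives, 47 were the same within the limits set and 37 moved; none changed direction. The KO over WT log2 ratio of the share in germ-like cells, -0.025, was -0.032 with common limits on cells, -0.023 without doublets, -0.026 without cells holding markers of another class, -0.023 thinned to 3000 UMIs, -0.043 at 8000 to 15000 UMIs, -0.023 as a mean over cells, -0.036 without mitochondrial and haemoglobin UMIs and -0.024 with copies added. In the same order without the last, germ-like over granulosa-like (0.20 in WT) was 0.22, 0.22, 0.28, 0.24, 0.28, 0.24 and 0.16, and 0.12 where the ribosomal share was not regressed out; 211 of the 1153 WT cells then called granulosa-like were germ-like cells of the main clustering, and germ cell markers stood there at a median of 46.6% of the germ-like level. Rpl39l, 2.67 in that comparison, was then 1.23, and 5.14 without cells holding markers of another class. The 5.14 rests on 11 UMIs of Rpl39l in granulosa-like cells, after a filter that itself lowers germ cell markers there. Recombination-initiating-like over premeiotic-like (-0.082) was -0.075 with common limits, -0.050 without those cells, -0.077 thinned, -0.096 at 8000 to 15000 UMIs, -0.078 as a mean, -0.062 without mitochondrial UMIs and -0.069 without regression. Stra8-low over premeiotic-like (0.11) was 0.13, 0.17, 0.12, 0.14, 0.12, 0.12 and 0.13 in that order. Members past the limit fell with a limit of 0.5 from 1, 35, 11 and 21 to 0, 10, 3 and 6 in these 4 comparisons. The count for KO against WT was also 0 with copies added, that for germ-like against granulosa-like cells was 21 without regression, and that for recombination-initiating-like against premeiotic-like cells was 19 at 8000 to 15000 UMIs, the cause of which was not tested. Shares over all genes are given for the main setting only. The counts under other settings thus do not show whether members passed more often than all genes there. The log2 ratio of the share in theca-like cells, KO over WT, turned from 0.025 to -0.018 at 8000 to 15000 UMIs. Of 1362 values of 38 named members, 45 changed sign, none of them for a member past the limit. The alternatives for Stra8-low against premeiotic-like cells and for KO against WT in the somatic classes, the removal of mixed cells for paralog levels and the subunit ratio without Rps20 were chosen after seeing the data. No paired analysis was possible because KO and WT, with 1 library each, share fewer than 2 replicate numbers; for classes and stages, which both libraries hold, a fit with library as a block was not run, and both libraries' values stand side by side. Members under 100 CPM rest on few UMIs in somatic classes, and 1 library a group limits every comparison of KO with WT.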
